A study of Homo sapiens with 21 samples.

Results

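The comparison described here set the libraries labelled resistant 2 against the vehicle libraries of the same sequencing batch. It took every gene that passed a low-count filter in the gene count table of the second batch, which was 15218 of 28008 genes. Another 12790 genes were under the filter, and 6795 of these had 0 counts in all 9 libraries of the batch. The 6 libraries compared were 3 of resistant 2 and 3 of vehicle, out of 21 in the series. Both groups carry the cell line label OCI-AML3, a human acute myeloid leukemia line with monocytic features, and the cell type label myeloid. The resistant libraries have the genotype label Res and the treatment label StAMP, an abbreviation that the labels do not spell out, in a series on stapled oncolytic peptides. The vehicle libraries have the genotype label WT and the treatment label DMSO, the solvent. Resistant 1 and resistant 2 are labelled as biological replicates 1 and 2 of the resistant cells, each with 3 libraries in this batch, so each resistant group stands for 1 biological replicate. The sources used here give no dose or duration. The labels do not say that the 3 libraries of a group came from separate cultures, and the p-values rest on the spread among the libraries as sequenced, which may be technical.

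Blood cells of different branches are defined by transcription factors that act in opposition. GATA1, TAL1 and KLF1 drive the erythroid program of globins, heme synthesis and red cell membrane proteins. SPI1 (PU.1), the CEBP factors and IRF8 drive the granulocyte and monocyte program of granule proteases, Toll-like receptors and phagocyte oxidase. OCI-AML3 belongs to the second branch. K562, a human chronic myeloid leukemia line that the series also holds, has erythroid and megakaryocytic features.

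Of the markers of the myeloid line on their label, 21 of 23 monocyte and macrophage genes and 8 of 9 neutrophil granule genes were lower in the libraries labelled resistant 2 than in vehicle, against 35.9% of all genes tested. Members with few or no counts in both resistant groups, CTSG and ELANE among them, passed the low-count filter through vehicle. Their direction was fixed by the filter, so these counts are descriptions. SPI1, the myeloid factor PU.1, and LYZ, lysozyme, were still read. Across 10767 genes, Pearson's r of log2 expression between a resistant 2 library and a K562 library of the first batch was 0.900 to 0.930, against 0.548 to 0.566 with the vehicle libraries of their own batch. It was 0.479 to 0.506 with the OCI-AML3 parental libraries of the first batch, 0.967 to 0.982 with resistant 1 of the same batch, and 0.985 to 0.995 among the 3 resistant 2 libraries. These are descriptions across genes, which are not independent replicates. The vehicle libraries correlated at 0.925 to 0.945 with the parental libraries. Total counts ran from 41433169 to 43699567 per library in resistant 2 and from 36143114 to 51262668 in vehicle. Resistant 2 replicate 2 stood somewhat apart from replicates 1 and 3 and is named below for some of the genes where it differs. By the spread of counts, replicates 1 and 3 were also the closest pair in vehicle and in resistant 1. Every direction below is that of the libraries labelled resistant 2. Whether it belongs to resistance, or to the identity of the cells in those tubes, cannot be told apart in this design.

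Of the 15218 genes, 11586 (76.1%) passed an adjusted p below 0.05 in edgeR's quasi-likelihood test, 6124 of them higher (40.2%) and 5462 lower (35.9%) in resistant 2. A call was at least 2-fold in 7331 genes (48.2%), 4204 higher (27.6%) and 3127 lower (20.5%). It was at least 16-fold in 1790 genes that were higher and 1168 that were lower. In 11300 of the called genes the 3 and 3 libraries did not overlap, and in 11936 of all 15218 genes tested. The median log2 fold change of all genes tested was 0.07 and the median of its absolute value was 0.97. With 3 in 4 genes called, the counts of gene groups below are read against these shares. Scaling to the library size alone, without trimmed-mean factors, moved the median from 0.07 to 0.35 and the higher share of the calls from 52.9% to 63.5%.

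Lineage genes were among the greatest changes, and many went to or from no read at all. CPM below is the counts-per-million value with trimmed-mean scaling, one value per library in the order of replicates 1, 2 and 3. The promoters of a gene from each side are shown, chosen for their motif matches from 8 that were searched: ALAS2, the first enzyme of heme synthesis in red cell precursors, which had 0 counts in vehicle, and CTSG, the granule protease cathepsin G, which had 0 counts in resistant 2. They are the 250 bases before the start of the gene in RefSeq, build GRCh38.p14, 5′ to 3′ on the strand of the gene. Both genes are on the minus strand, ALAS2 at chrX:55030978-55031227 and CTSG at chr14:24576251-24576500. Capitals mark the motif of GATA factors, searched as AGATAA on both strands (TTATCT on the printed strand). They also mark the core of the PU.1 motif, searched as GAGGAA on both strands (TTCCTC where it lies on the other strand). The motifs do not overlap each other.
ALAS2: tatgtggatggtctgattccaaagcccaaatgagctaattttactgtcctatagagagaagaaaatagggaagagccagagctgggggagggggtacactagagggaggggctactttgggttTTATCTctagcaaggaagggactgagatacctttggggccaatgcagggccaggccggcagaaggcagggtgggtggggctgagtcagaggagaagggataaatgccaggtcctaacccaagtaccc
CTSG: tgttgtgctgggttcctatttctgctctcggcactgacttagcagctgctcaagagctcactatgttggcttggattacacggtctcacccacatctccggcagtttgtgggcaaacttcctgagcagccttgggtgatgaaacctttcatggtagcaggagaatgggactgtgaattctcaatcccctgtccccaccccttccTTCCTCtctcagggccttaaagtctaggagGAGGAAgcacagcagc
ALAS2 held 1 AGATAA match and CTSG held 2 GAGGAA matches, counted on both strands. Of the other promoters searched, TAL1 held 1 AGATAA match, GATA1 held 1 GAGGAA match, and RHAG, HEMGN, KLF1 and IRF8 held neither. Over the gene sets the shares lay close to each other. AGATAA was found in 9 of 122 promoters (7.38%) of genes at 10 CPM or more in resistant 2 with 0 counts in vehicle, in 5 of 62 (8.06%) of the opposite set, and in 553 of 11046 (5.01%) of all tested genes with a promoter in the table. GAGGAA was found in 27.9%, 27.4% and 23.2% of the same 3 sets. A match of these letters is a description and not a binding site.

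Most erythroid regulators were higher in resistant 2, and some of them were nearly unread in vehicle. GATA1, the master factor of red cell and megakaryocyte precursors, had 152, 161 and 144 CPM in the resistant 2 libraries and 0.0431, 0 and 0 in vehicle, where it had 2 counts in all. That is 8876 times as much, with exact 95% counting limits of 2457 and 73294, and limits and floors here cover counting error only. KLF1, the activator of adult globin and red cell genes, had 48.5, 59 and 40.5 CPM against 0.0646, 0.053 and 0.0621 (log2 fold change 9.61, SE 0.29, adjusted p = 5.26e-13). TAL1, a partner of GATA1, had 105, 89.1 and 94.9 CPM against 8.18, 7.13 and 7.29 (log2 fold change 3.67, SE 0.13, adjusted p = 2.04e-12). The groups did not overlap for any of the 3. Of 13 regulators tested, 11 rose and 1, LMO2, an adaptor of the same complex, fell (208, 195 and 201 CPM in vehicle and 58.9, 87.2 and 64.8 in resistant 2, adjusted p = 1.1e-06). The median log2 fold change was 3.67, and the summed level of the list was 720 to 771 CPM in vehicle and 1232 to 1482 CPM in resistant 2.

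Their textbook targets were read at high counts where vehicle had none. RHAG, the red cell Rh-associated ammonium channel, had 279, 358 and 255 CPM in resistant 2 and 0 counts in vehicle, so it was at least 11541-fold higher, with the floor of an absent gene set at 3 counts over the group. HBG2, a fetal globin chain, had 208, 310.2 and 168 CPM where vehicle had 0 counts, a rise of at least 8877-fold. HBG2 and HBG1 are near-identical copies and share reads, so the split between them is uncertain. ALAS2 had 33.5, 28 and 28.9 CPM where vehicle had 0 counts, a rise of at least 1168-fold. Replicate 2 was the highest of the 3 for RHAG and HBG2, and every resistant 2 library was far above every vehicle library. HBE1, the embryonic beta-like globin, had a mean of 77.3 CPM and 1 count in the vehicle libraries together.

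As groups, the 9 globin genes tested were higher in resistant 2, with a median log2 fold change of 10.74 as fitted, and 8 of the 11 listed genes had 0 counts in vehicle. These 9 passed the low-count filter through the resistant libraries, where they are high, so their direction was fixed by the filter and supports nothing. The same holds below for members with few or no counts in vehicle, and in reverse for those with few or no counts in both resistant groups. Such fitted values depend on the prior count and are no bound. With each gene at 0 counts in a group placed at its lower bound, of 3 counts over that group, the globin median was 7.63, and the medians of the other lists below are the same to 2 decimals unless a second value is given. Their summed level was 308 to 529 CPM in resistant 2 and 0 to 0.108 CPM in vehicle. Of 21 red cell membrane genes, 20 rose and none fell, with a median of 6.39 as fitted and 6.12 at the bounds. Heme and iron genes were mixed, with 12 of 18 higher, 2 lower and a median of 0.69. TFRC, the transferrin receptor that brings iron into the cell, rose from 89.3, 146 and 128 to 422, 932 and 455 CPM (log2 fold change 2.31, SE 0.35, adjusted p = 0.000131), with replicate 2 above the other two. BLVRB, a biliverdin and flavin reductase of red cells, rose from 6.91 to 115 CPM on average. FTH1, the ferritin heavy chain, rose from 321 to 1392 CPM on average. ALAD, the second enzyme of heme synthesis, fell from 78.6 to 15 CPM.

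**Figure D1:**
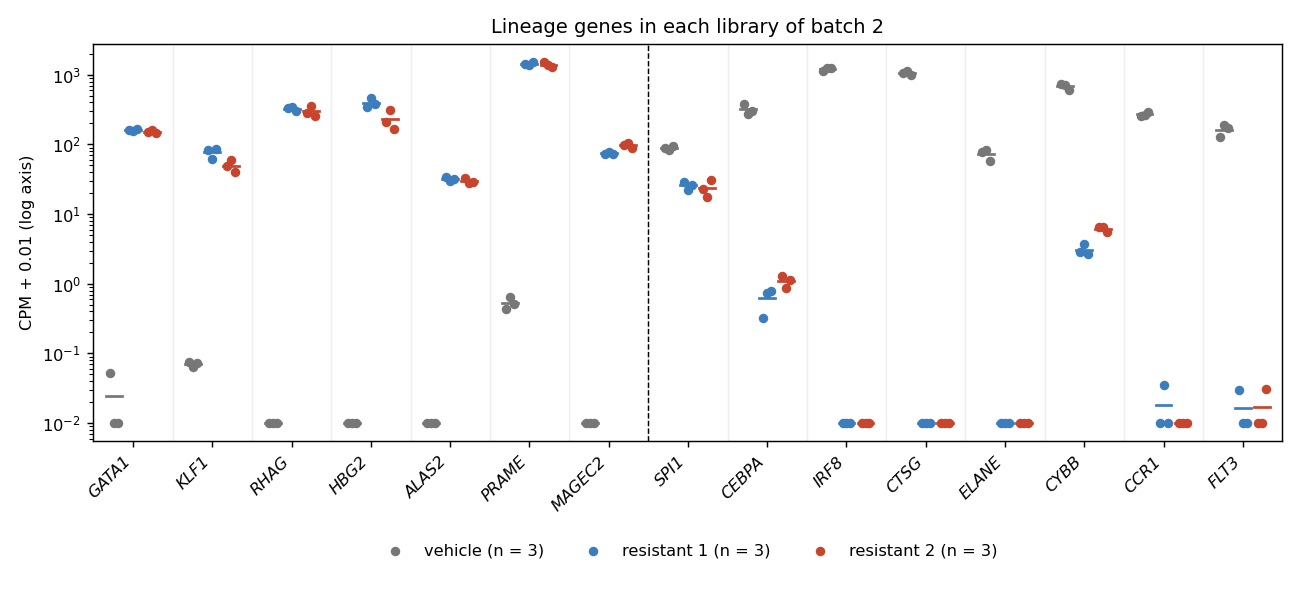
Counts-per-million values (log axis, each value plus 0.01) of erythroid genes and cancer-testis antigens (left of the dashed line) and of granulocyte and monocyte genes (right) in the libraries of batch 2, with 1 point per library and a bar at the mean of each group. The erythroid genes sit high in all 3 libraries of both resistant groups and near the bottom in vehicle, RHAG and ALAS2 at 0 counts, and IRF8, CTSG and ELANE show the reverse.

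The granulocyte and monocyte program went the other way. IRF8, the factor that directs monocyte and dendritic cell fate, had 1119, 1243 and 1254 CPM in vehicle and was not read in any resistant 2 library, which makes it at least 55777-fold lower. CTSG had 1069, 1140.3 and 1004 CPM in vehicle, against 0 counts, a fall of at least 49558-fold. ELANE, neutrophil elastase, had 78, 83.4 and 57.1 CPM, against 0 counts, a fall of at least 3369-fold. The vehicle libraries were close to each other for IRF8 and CTSG, and none came near 0. CEBPA, the factor required for granulocyte fate, fell from 377, 274 and 305 to 1.29, 0.854 and 1.11 CPM (log2 fold change -8.19, SE 0.24, adjusted p = 6.09e-13). SPI1 fell less, from 89.7, 83.8 and 95.5 to 23.2, 17.5 and 31.3 CPM (log2 fold change -1.90, SE 0.18, adjusted p = 2.2e-07), and so was still read in all 3 libraries. CYBB, the catalytic chain of the phagocyte oxidase, fell from 729, 717 and 605 to 6.42, 6.49 and 5.6 CPM (log2 fold change -6.79, SE 0.16, adjusted p = 7.34e-14).

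Of 23 monocyte and macrophage genes tested, 21 fell and 2 rose, with a median log2 fold change of -6.79 as fitted and -6.37 at the bounds, and a summed level of 2412 to 2554 CPM in vehicle and 592 to 697 CPM in resistant 2. One of the 2 that rose was FCGR2A, a low-affinity IgG receptor, which holds much of the summed level in resistant 2 (93.6, 105 and 104 CPM in vehicle, 429, 416 and 514 in resistant 2, log2 fold change 2.17, SE 0.12, adjusted p = 3.89e-10). LYZ, lysozyme, fell from 272 to 93.2 CPM and was not lost. CD14, the lipopolysaccharide co-receptor of mature monocytes, was low in both groups, 1.76 CPM in vehicle and 0.124 in resistant 2. Of 9 neutrophil granule genes, 8 fell and 1 rose, with a median of -7.88 and a summed level of 1211 to 1395 CPM in vehicle and 0.992 to 1.09 CPM in resistant 2. The one that rose, LTF (lactoferrin), had 0 counts in vehicle and a mean of only 0.388 CPM in resistant 2. Of 14 myeloid regulators, 11 fell and 2 rose, with a median of -3.59. Those were RUNX1, a factor of blood stem cells and megakaryocytes, at 121 CPM in vehicle and 265 in resistant 2, and NFIL3, a basic leucine zipper factor, at 12.3 and 37.3. In these bulk libraries, fewer cells of a type and less RNA per cell cannot be told apart. FLT3, a receptor kinase of early myeloid cells, had 129.8, 190.0 and 171 CPM in vehicle and 1 count in resistant 2. KIT, the stem cell factor receptor, had 0 counts in vehicle and 7.24, 6.18 and 6.77 CPM in resistant 2. Of 7 progenitor genes, 3 rose and 4 fell.

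Genes of other cell types were read too, without a full marker set of any. All 6 megakaryocyte genes that passed the filter rose, and their summed level was 1.55 to 2.50 CPM in vehicle and 120 to 136 CPM in resistant 2, but the other 10 of the 16 were under the filter, and PF4, GP9 and GP1BB, which define the lineage, had 0 counts in resistant 2. TUBB1, the platelet beta tubulin, had 8.81, 13.2 and 8.52 CPM. Of 6 lymphocyte genes that passed the filter, 4 rose and 2 fell, and their summed level fell from 317 to 350 CPM in vehicle to 4.90 to 7.57 CPM, in vehicle nearly all of it CD4, which monocytic cells also express (348, 326 and 315 CPM in vehicle, 1 count in resistant 2). CD3D, a chain of the T cell receptor complex, had 0 counts in vehicle and 4.24, 5.57 and 3.47 CPM in resistant 2, while BCL11B and MS4A1 had 0 counts there. Of 8 fibroblast and epithelial genes, 7 rose and 1 fell. KRT19, a simple epithelial keratin, had 36.4, 30.9 and 36.9 CPM and EPCAM, an epithelial adhesion molecule, 43.5, 50.6 and 36.7 CPM, both with 0 counts in vehicle. KRT5, a basal keratin, had 0 counts in resistant 2. VIM, vimentin, the one that fell, gave most of the summed level in both groups (1317 and 870.4 CPM). KRT19 and EPCAM were also read in K562, at 65.5 and 84.6 CPM. Whether other cells took part in these values was not tested.

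Cancer-testis antigens, genes normally read in germ cells and reactivated in tumors, had a summed level of 1.83 to 3.62 CPM in vehicle and 2429 to 2650 CPM in resistant 2. Of 21 in the table, 18 had 0 counts in vehicle. The 17 tested members were all higher in resistant 2, a direction that the filter largely fixed. PRAME, a repressor of retinoic acid receptor signalling, rose from 0.431, 0.637 and 0.496 to 1501, 1379 and 1289 CPM (log2 fold change 11.38, SE 0.19, adjusted p = 2.03e-14). MAGEC2 had 97.5, 104 and 88.4 CPM and MAGEC1 93.5, 97.2 and 96.9 CPM, both with 0 counts in vehicle. In K562 the 3 genes had 1459, 94.2 and 104 CPM. Members of the MAGE family resemble each other in sequence, so reads may be shared between them.

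By fold change, the 8 genes that rose most among those at 10 CPM or more were all at 0 counts in vehicle. Besides RHAG and HBG2 they were HEMGN, an erythroid nuclear protein (148, 243 and 111 CPM), NCKAP1, a subunit of the WAVE actin complex (237, 315 and 232 CPM), DLK1, a membrane ligand related to Notch ligands (217, 227 and 239 CPM), ARHGAP6, a GTPase-activating protein (222, 154 and 169 CPM), DCAF4L2 (275, 229 and 276 CPM) and LOC102724908 (495, 597 and 335 CPM). The 8 that fell most were all at 0 counts in resistant 2. Besides IRF8 and CTSG they included LAMP5, a lysosome-associated protein of dendritic cells and neurons (589.8, 735 and 819 CPM in vehicle), NAV3, a neuron navigator protein (506, 479.9 and 569 CPM), CCR1, a chemokine receptor of monocytes (260.2, 266 and 293 CPM), IRAK3, a brake on Toll-like receptor signalling (236, 267 and 270.1 CPM), and PID1 (211, 278 and 234 CPM). No library of one group came near the other group for these genes.

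There were 188 genes at 10 CPM or more in resistant 2 with 0 counts in the 3 vehicle libraries, and 88 at 10 CPM or more in vehicle with 0 counts in the 3 resistant 2 libraries. Of the 188, 151 also had 0 counts in the parental OCI-AML3 libraries of batch 1, and 129 were at 10 CPM or more in K562. Of the 88, 73 were at 10 CPM or more in parental OCI-AML3, 53 had 0 counts in K562 and all 88 were under 1 CPM there. Groups of neighbouring genes were among those with 0 counts. On chromosome 9, hg38 positions 20999509 to 22009305 by the GENCODE annotation, HACD4, KLHL9, MTAP, CDKN2A and CDKN2B had 35115 counts in vehicle together, 0 in resistant 2, 0 in resistant 1 and 1 in K562. All 9 genes tested from that region's list fell, a direction that the filter fixed for those with 0 counts in both resistant groups. MTAP, which salvages methionine, had 200.1, 208 and 209.6 CPM in vehicle, and CDKN2A and CDKN2B encode inhibitors of the cell cycle kinases CDK4 and CDK6. On chromosome 7, positions 27153716 to 27180261, HOXA7, HOXA9, HOXA10-AS and HOXA10 had 25325 counts in vehicle, 0 in both resistant groups and 1 in K562. On chromosome 14, positions 20891385 to 20956436, RNASE3, ECRP and RNASE2, ribonucleases of eosinophil granules and a related pseudogene, had 22558 counts in vehicle, 0 in resistant 2, 2 in resistant 1 and 2 in K562. Counts of expression do not show whether the DNA of a region was lost.

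HOX genes fell and rose, and the 5 that rose were all of the HOXB cluster. HOXA10, a factor of early myeloid cells, had 208, 209.9 and 189 CPM in vehicle and HOXA13 190.2, 216 and 209 CPM, both with 0 counts in resistant 2. HOXB9 rose from 17.6, 12.3 and 15.9 to 358, 297 and 436 CPM (log2 fold change 4.57, SE 0.17, adjusted p = 5.54e-12). Of 18 HOXA and HOXB genes tested, 5 rose and 12 fell.

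Cholesterol genes, which the series title places beside susceptibility, did not move as one group. Cells make cholesterol through enzymes that SREBF2 (SREBP2) induces when sterol is low, take it up from lipoproteins and export it through ABC transporters. Of 22 biosynthesis genes, 7 rose, 9 fell and 6 were not called, with a median log2 fold change of -0.04. CYP51A1, lanosterol demethylase, fell from 309.7, 335 and 383 to 108, 148 and 92 CPM (log2 fold change -1.56, SE 0.16, adjusted p = 3.61e-07). EBP, the sterol isomerase, rose from 13.4 to 52.7 CPM. HMGCS1 had 156, 160.1 and 157 CPM in vehicle and 142, 194 and 112 in resistant 2, and SQLE had 192, 216 and 226 and 168, 281 and 176; neither passed the test (adjusted p = 0.652 and 0.91). Replicate 2 was the highest of the resistant 2 libraries for CYP51A1, HMGCS1 and SQLE. Without it, the log2 fold changes of HMGCS1 and SQLE were -0.31 and -0.30, and both passed the test.

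Of 19 genes of sterol sensing and uptake, 3 rose and 11 fell, with a median of -0.39. SREBF2 fell from 294, 316 and 304 to 160.3, 163 and 151 CPM (log2 fold change -0.95, SE 0.10, adjusted p = 8.59e-07). LIPA, the lysosomal acid lipase that frees cholesterol from lipoproteins, fell from 88.3, 94.8 and 91.3 to 0.486, 0.449 and 0.916 CPM (log2 fold change -7.20, SE 0.22, adjusted p = 6.98e-13). NPC1, the lysosomal cholesterol exporter, rose from 46.5 to 76.9 CPM, and SOAT1, which esterifies cholesterol for storage, fell from 106 to 55.9. Of 9 efflux genes, 2 rose and 6 fell. ABCA1, the exporter of cholesterol to lipid-poor apolipoproteins, fell from 19.8, 44.4 and 41.9 to 0.549, 0.18 and 0.618 CPM. APOE, the apolipoprotein that carries the exported lipid, rose from 0.194, 0 and 0 to 45, 40.5 and 41.4 CPM (log2 fold change 9.05, SE 0.36, adjusted p = 1.75e-11), and its neighbour APOC1 from 2.81 to 64.6 on average.

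Genes of the plasma membrane and its surface also split. Of 19 lipid transporters and scramblases, 6 rose and 11 fell, with a median of -1.12. ATP8B4, a P4-type ATPase, fell from 496, 484 and 460.2 to 3.86, 2.09 and 3.66 CPM (log2 fold change -7.22, SE 0.20, adjusted p = 3.01e-13). ABCB1, the multidrug efflux pump P-glycoprotein, had 1 count in vehicle and 46.1, 47.3 and 53.4 CPM in resistant 2, which is 5697 times as much (counting limits 1022 and 225036). In K562 of batch 1 it had a mean of 21.9 CPM. Of 23 genes of membrane repair and annexins, 11 rose and 9 fell. ANXA1, a calcium-dependent phospholipid binder, rose from 10.9, 11.2 and 11 to 448, 353 and 419 CPM, ANXA3 rose from 0.357 to 71 on average, and MYOF, the membrane repair protein myoferlin, fell from 59.4 to 0.0942. Of 29 genes of surface glycans, 11 rose and 17 fell. ST6GAL1, which caps N-glycans with sialic acid, rose from 29.5, 27.9 and 34.9 to 353, 381 and 363 CPM (log2 fold change 3.57, SE 0.12, adjusted p = 2.11e-12), and XYLT1, which starts glycosaminoglycan chains, fell from 49.9 to 0.0284. Of 17 integrins and adhesion genes, 4 rose and 11 fell. ITGAL, the alpha chain of the leukocyte integrin LFA-1, fell from 78.4 to 0.0508 CPM, CXCR4, the chemokine receptor of marrow homing, fell from 227 to 0.0296, and ITGB5 rose from 7.14 to 61.1.

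Inflammatory genes are the other subject of the series title, and their lists held genes that fell and genes that rose. Microbial products and damage are sensed by Toll-like receptors and by inflammasomes that cut interleukin-1 through caspase-1, and NF-kappa-B carries the signal to cytokine genes. Of 27 inflammasome and Toll-like receptor genes, 15 fell and 4 rose, with a median of -1.67 and a summed level of 1369 to 1492 CPM in vehicle and 327 to 368 CPM in resistant 2. NLRP3, the inflammasome sensor, fell from 213, 198 and 195 to 0.106, 0.0449 and 0.128 CPM (log2 fold change -11.03, SE 0.22, adjusted p = 3.05e-14). TLR2, a receptor for bacterial lipoproteins, had 209, 179.6 and 236 CPM in vehicle and 1 count in resistant 2. CASP1, the interleukin-1 converting protease, fell from 49.3, 51.9 and 53.9 to 0.802, 0.517 and 1.36 CPM (log2 fold change -5.84, SE 0.25, adjusted p = 2.59e-11). TLR5, the flagellin receptor, had 0 counts in vehicle and 3.59, 4.76 and 2.24 CPM in resistant 2.

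The NF-kappa-B genes were divided, with 11 of 27 higher, 13 lower and a median of -0.11. IL1B, interleukin-1 beta, fell from 44.9, 39.5 and 46.3 to 0.211, 0.0449 and 0.0639 CPM (log2 fold change -8.62, SE 0.31, adjusted p = 3.09e-12), and TNF fell from 31, 19.4 and 19.4 to 0.106, 0 and 0.0213 CPM. CXCL8, the neutrophil chemoattractant interleukin-8, fell from 347, 162 and 167 to 13.1, 2.47 and 11.6 CPM (log2 fold change -4.63, SE 0.58, adjusted p = 5.39e-05), with resistant 2 replicate 2 below the others and vehicle replicate 1 above. NFKBIA, the inhibitor that NF-kappa-B induces against itself, fell from 38.9, 35.7 and 34.3 to 14.4, 14.2 and 17.2 CPM. BIRC3, an inhibitor of apoptosis and NF-kappa-B target, rose from 0.194, 0.345 and 0.0621 to 15.9, 9.08 and 19.3 CPM (log2 fold change 6.15, SE 0.40, adjusted p = 3.73e-09). IL6 had 0 counts in vehicle and 7.66, 3.64 and 6.6 CPM in resistant 2. IL1B and TNF were thus nearly unread in resistant 2, while IL6 was read there and not in vehicle.

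Of 32 type I interferon genes, 11 rose and 17 fell, with a median of -0.55. IFITM1, a membrane protein that blocks virus entry, rose from 0.0431, 0.159 and 0 to 266, 303 and 275 CPM (log2 fold change 11.94, SE 0.29, adjusted p = 8.18e-14), and IFITM3 rose from 3.79 to 100.2. OAS2, a sensor of double-stranded RNA, had 6.63, 14.8 and 11.9 CPM in vehicle and 0 counts in resistant 2. Of 19 antigen presentation genes, 5 rose and 13 fell, with a median of -1.82. CD74, the class II invariant chain, had 69.3, 88.9 and 74 CPM in vehicle and 1 count in resistant 2.

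**Figure D2:**
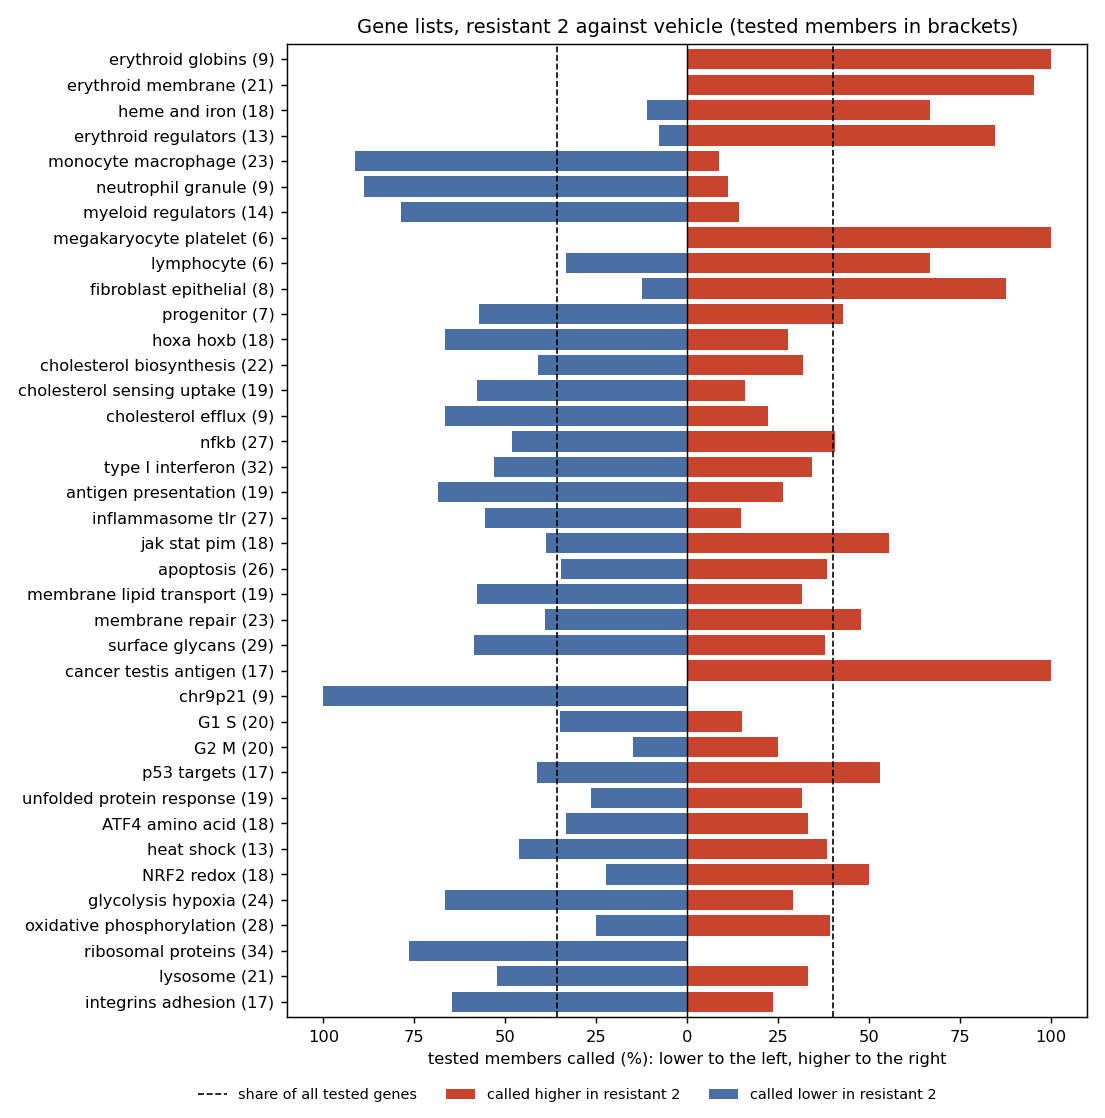
Percent of the tested members of each gene list (number in brackets) called higher (right) or lower (left) in resistant 2 against vehicle, with dashed lines at the shares of all tested genes, 40.2% higher and 35.9% lower. Globins, red cell membrane genes and cancer-testis antigens lie almost wholly to the right, neutrophil granule and monocyte genes almost wholly to the left, and the NF-kappa-B and apoptosis lists lie near the dashed lines.

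Genes of growth factor signalling and survival rose and fell. Of 18 genes of JAK, STAT and PIM signalling, 10 rose and 7 fell, with a median of 1.52. PIM1, a survival kinase induced by STAT5, rose from 7.84, 8.59 and 8.19 to 826, 627 and 761 CPM (log2 fold change 6.49, SE 0.33, adjusted p = 3.66e-09), and STAT5A rose from 1.87, 1.78 and 2.17 to 161, 295 and 172 CPM (log2 fold change 6.76, SE 0.29, adjusted p = 1.82e-10). CSF3R, the receptor of the granulocyte growth factor, fell from 45.6 to 0.429 CPM. Of 26 apoptosis genes, 10 rose, 9 fell and 7 were not called. BCL2, a blocker of mitochondrial apoptosis, fell from 401, 541 and 571 to 12.2, 8.92 and 13 CPM (log2 fold change -5.47, SE 0.18, adjusted p = 1.33e-12), and BCL2L1, which encodes the related BCL-xL, rose from 21.6, 24.5 and 22.5 to 232, 268 and 234 CPM (log2 fold change 3.42, SE 0.11, adjusted p = 1.39e-12). MYC, a driver of growth, fell from 482, 444 and 508 to 226, 215 and 174 CPM. In K562 of batch 1, PIM1, STAT5A and CSF3R had means of 343, 516 and 0.267 CPM. BCL2, BCL2L1 and MYC had 1.81, 173 and 254 CPM there. Of 17 p53 targets, 9 rose and 7 fell. GDF15, a stress cytokine, rose from 0.84, 0.053 and 0.248 to 175, 74.9 and 153 CPM, with replicates far apart, and GADD45A, a growth arrest protein, from 5.17, 4.54 and 4.93 to 156, 118 and 174.

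Lists of housekeeping processes were described in the same way. Of 34 ribosomal protein genes, 26 fell and none rose, with a median of -0.55 and a summed level of 46064 to 56220 CPM in vehicle and 34064 to 38322 in resistant 2. With scaling to the library size alone, 15 fell and 5 rose. Of 24 glycolysis and hypoxia genes, 16 fell and 7 rose, with a median of -0.53. GAPDH fell from 3723, 3526 and 3687 to 956, 1061 and 865 CPM, PKM, pyruvate kinase, from 911 to 219 on average, and ENO2, the neuronal enolase, rose from 1.92 to 18.9. Of 28 oxidative phosphorylation genes, 11 rose, 7 fell and 10 were not called. Of 20 genes of the G1 and S phases, 3 rose and 7 fell, and of 20 of the G2 and M phases, 5 rose and 3 fell, the latter 4 to 13 higher over the alternatives, so no direction is read. UBE2C, a ubiquitin conjugase of mitosis, fell from 67.7, 78.5 and 64.9 to 0.19, 0.27 and 0.149 CPM. GPX1, the glutathione peroxidase, had 172, 128 and 164 CPM in vehicle and 2 counts in resistant 2, while 9 of 18 NRF2 and redox genes rose and 4 fell. Of 21 lysosome genes, 7 rose and 11 fell, among them LAMP1, a lysosome membrane glycoprotein, from 219.7 to 37.6 CPM, and GAA, the acid glucosidase, from 62.9 to 2.18. Of 19 unfolded protein response genes, 6 rose and 5 fell, of 18 ATF4 and amino acid genes 6 rose and 6 fell, and of 13 heat shock genes 5 rose and 6 fell. SDF2L1, a chaperone partner of the endoplasmic reticulum, rose from 5.45 to 66.9 CPM, and HSPA8, the constitutive HSP70, fell from 4481 to 1850.0. CA2, carbonic anhydrase 2, fell from 2067, 1320.3 and 1577 to 0.19, 0.247 and 0.256 CPM (log2 fold change -12.79, SE 0.28, adjusted p = 4.74e-14). Of the mean differences in CPM, those of mitochondrial ribosomal RNA (RNR2, 7569.8, 5473 and 6110.5 CPM in vehicle and 2235, 2736 and 1639 in resistant 2) and of the actins ACTB (4899 and 1961) and ACTG1 (5251 and 1227) were among the 8 greatest that fell.

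Across chromosomes, the 9911 genes at 10 CPM or more had a median log2 fold change of -0.08. Chromosome 6 had the highest median, 0.57, with 308 of 525 genes higher (58.7%) and 108 lower. The X chromosome had a median of 0.31, with 168 of 339 genes higher. The lowest were chromosome 8, at -0.51 with 204 of 350 genes lower, and chromosome 18, at -0.47 with 83 of 146 lower. Of all 15218 genes tested, 40.2% were higher and 35.9% lower, but that set also holds genes under 10 CPM. On chromosome 1, with 1014 genes at 10 CPM or more and a median of -0.08, 34.9% were higher and 40.6% lower. Relative to all genes, the medians of chromosomes 6, X, 8 and 18 were 0.64, 0.39, -0.44 and -0.39. Those of K562 minus parental OCI-AML3 of batch 1, by mean log2 values, were 0.55, 0.41, -0.43 and -0.12. These medians are descriptions over genes, each from 1 pair of groups.

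Resistant 1 and resistant 2 were compared directly, which asks whether the 2 resistant groups differ; the changes of each against vehicle share the vehicle libraries and are given side by side. Of the 15218 genes, 3706 were called (24.4%), 1890 higher (12.4%) and 1816 lower (11.9%) in resistant 2, and 11512 were not called, which does not show that they were equal. The calls numbered 2467 without resistant 1 replicate 1, 2323 without resistant 1 replicate 3, 2387 without resistant 2 replicate 1 and 2431 without resistant 2 replicate 3. A call was at least 2-fold in 823 genes that were higher and 592 that were lower, and the median absolute log2 fold change was 0.30, against 0.97 between resistant 2 and vehicle. With scaling to library size alone the higher share of the calls was 65.1% in place of 51.0%. Of 14 myeloid regulators, 7 were higher in resistant 2 (2 to 8 over the alternatives) and none lower, with a median log2 difference of 0.59. Some lineage genes were not called. GATA1 had 161, 155 and 165 CPM and RHAG 334, 339 and 297 CPM in resistant 1, and neither passed the test against resistant 2 (log2 difference -0.07, adjusted p = 0.711, and -0.12, adjusted p = 0.551), and IRF8 and CTSG had 0 counts in both.

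Several erythroid genes were lower in resistant 2 than in resistant 1. HBE1 had 81.1, 80.6 and 70.1 CPM in resistant 2 and 208, 202 and 207 in resistant 1 (log2 difference -1.41, SE 0.11, adjusted p = 1.05e-06). KLF1 had 82.9, 62.8 and 87 CPM in resistant 1 (log2 difference -0.65, SE 0.15, adjusted p = 0.00642). The 2 groups did not overlap for either gene. Of 9 globin genes, 3 were lower and none higher, and of 21 red cell membrane genes, 9 were lower and 1 higher. Of all genes tested, 11.9% were lower and 12.4% higher. The summed globin level was 308 to 529 CPM in resistant 2 and 666 to 817 in resistant 1. It was 3045 to 3213 in K562, which came from another batch and was scaled in another fit. STAT5A had 311, 425 and 497 CPM in resistant 1, above the 161, 295 and 172 of resistant 2 (log2 difference -0.97, SE 0.22, adjusted p = 0.00666), and 7 of 18 JAK, STAT and PIM genes were lower and 1 higher.

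Some lipid and inflammatory genes differed as well. Of 22 cholesterol biosynthesis genes, 8 were lower in resistant 2 and none higher, a count that ran from 2 to 11 over the alternatives. APOE had 137, 132 and 155 CPM in resistant 1 (log2 difference -1.74, SE 0.19, adjusted p = 3.35e-05), lower in resistant 2. ABCB1 had 7.51, 5.89 and 5.05 CPM in resistant 1 and was higher in resistant 2 (log2 difference 2.98, SE 0.17, adjusted p = 8.2e-08), with no overlap. BIRC3 had 3.64, 2.77 and 2.9 CPM in resistant 1 and was higher in resistant 2 (log2 difference 2.24, SE 0.30, adjusted p = 0.000122), as was ATF3, a stress-response factor, at 87.3, 49 and 136 CPM against 29.1, 29.2 and 37.7 (log2 difference 1.51, SE 0.31, adjusted p = 0.00608). Of 27 NF-kappa-B genes, 6 were higher (2 to 8 over the alternatives) and 3 lower (1 to 5). Of 32 interferon genes, 7 were higher (5 to 10) and 5 lower (4 to 5). Of 27 inflammasome and Toll-like receptor genes, 8 were higher (4 to 9) and 4 lower (3 to 4). The shares of all genes tested were 12.4% higher and 11.9% lower. Of 23 monocyte and macrophage genes, 2 were higher (2 to 3) and 7 lower (5 to 7), with a median log2 difference of -0.36. The 2 higher ones were CYBB and FCGR2A, with log2 differences of 1.00 (adjusted p = 0.000223) and 0.94 (adjusted p = 5.45e-05). In resistant 1, CYBB had 2.85, 3.7 and 2.71 CPM and FCGR2A 226, 222 and 258 CPM.

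Single genes set the 2 resistant groups apart by much more. LAPTM5, a lysosomal membrane protein of blood cells, had 412, 456 and 443 CPM in vehicle, 38.2, 56.4 and 47.9 in resistant 2 and 552, 627 and 643 in resistant 1. All 3 resistant 1 values were above the vehicle values and all 3 resistant 2 values under them, with K562 at a mean of 50.3 CPM. The difference between the resistant groups was -3.68 on the log2 scale (SE 0.15, adjusted p = 3.05e-09). CSF2RB, the shared beta chain of the interleukin-3 and GM-CSF receptors, had 43.2, 35.6 and 41.9 CPM in vehicle, 2.13, 3.19 and 3.9 in resistant 2 and 34.3, 25.7 and 42.8 in resistant 1 (log2 difference -3.48, SE 0.23, adjusted p = 2.69e-07). LPCAT2, a lysophospholipid acyltransferase, had 6, 4.9 and 4.39 CPM in resistant 2 and 53.9, 62.7 and 55.7 in resistant 1 (log2 difference -3.49, adjusted p = 3.05e-09). In the other direction, COL1A2, a chain of type I collagen, had 17.2, 25.7 and 12.3 CPM in resistant 2 and 0.787, 1.82 and 0.359 in resistant 1 (log2 difference 4.19, SE 0.44, adjusted p = 3.06e-05). CYTIP, a regulator of integrin adhesion in lymphoid cells, had 21.4, 8.2 and 21.5 CPM in resistant 2 and 2.03, 1.32 and 1.43 in resistant 1 (log2 difference 3.40, SE 0.33, adjusted p = 9.28e-06). RASGRP3, a guanine nucleotide exchange factor of RAS, had 77.5, 17.5 and 70.1 CPM, replicate 2 far under the others, and 10.2, 4.05 and 5.38 in resistant 1 (log2 difference 3.06, adjusted p = 0.0124). It lost the call without resistant 2 replicate 3 and without the low-count filter.

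**Figure D3:**
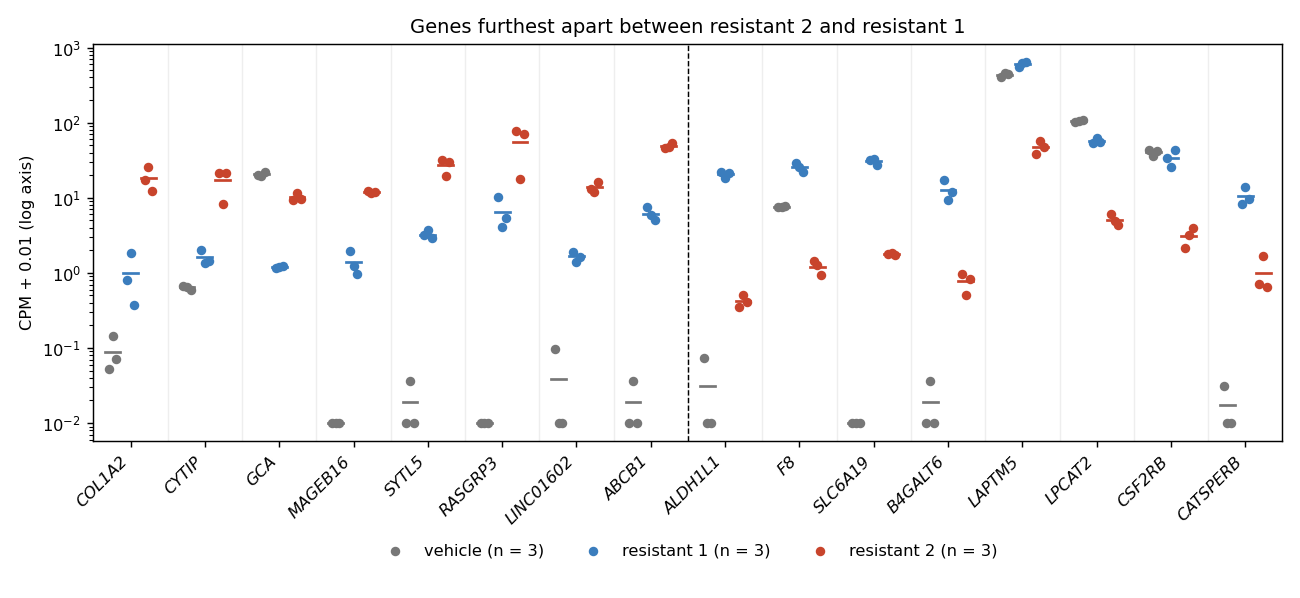
Counts-per-million values (log axis, each value plus 0.01) in the libraries of batch 2, with 1 point per library and a bar at the group mean, for the 8 genes most raised (left of the dashed line) and the 8 most lowered (right) in resistant 2 against resistant 1. LAPTM5 and CSF2RB are near the vehicle level in resistant 1 and lower in resistant 2, and COL1A2, CYTIP and ABCB1 are higher in resistant 2.

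Chromosome 14 stood out between the resistant groups. On chromosome 14, 150 of 326 genes at 10 CPM or more were lower in resistant 2 and 30 higher, with a median log2 difference of -0.36, against -0.01 over the 9911 genes of all chromosomes. The 257 genes that start before 90 Mb in hg38 had 149 lower and 3 higher and a median of -0.46, and the 69 from 90 Mb on had 27 higher and 1 lower and a median of 0.34. Of all 15218 genes tested, a set that also holds genes under 10 CPM, 12.4% were higher and 11.9% lower in resistant 2. The boundary was chosen after the values were seen. The 3 resistant 2 libraries gave medians of -0.43, -0.42 and -0.47 before the boundary and 0.26, 0.36 and 0.37 after it, relative to the resistant 1 mean. The resistant 1 libraries gave 0.00, -0.01 and 0.01, and -0.10, -0.01 and 0.09. Of 204 steps of 10 Mb over the genome that held at least 20 genes, each taken relative to the median of all genes, 7 lay on chromosome 14. The first 5 of these had a median of -0.3 or lower, and the last 2 were at 0.2999 and 0.34. The 197 steps of the other chromosomes ran from -0.42 to 0.29, with 6 at -0.3 or lower. Some steps with fewer than 20 genes lay further out. From 30 to 40 Mb, chromosome 18 was at -0.60 (19 genes, 13 lower) and chromosome X at 0.65 (15 genes, 10 higher). Chromosome 18 as a whole had a median log2 difference of -0.20, with 39 of 146 genes lower and 11 higher. Set against K562 and relative to all genes, chromosome 14 of resistant 2 was at 0.10 before the boundary and -0.11 after it. Resistant 1 of batch 2 was at 0.60 and -0.40, and resistant 1 of batch 1 at 0.28 and -0.26. The number of DNA copies was not measured.

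**Figure D4:**
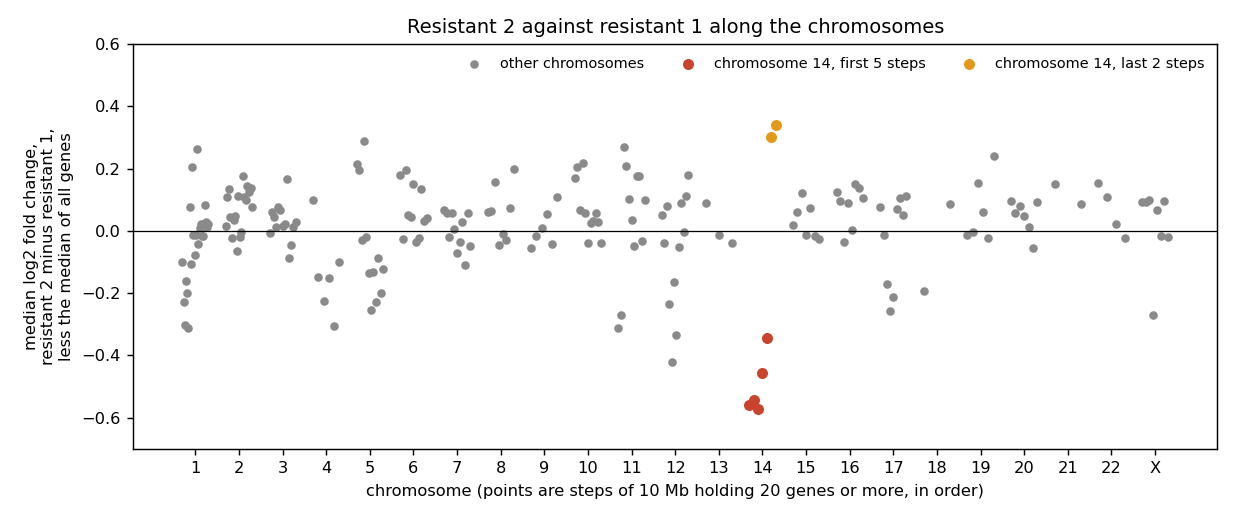
Median log2 difference of resistant 2 minus resistant 1, less the median of all genes, in 10 Mb steps with at least 20 genes, 1 point per step in chromosome order. The first 5 steps of chromosome 14 lie at -0.3 or lower and the last 2 at 0.2999 and 0.34. Of the steps shown, the highest of another chromosome is at 0.29.

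The change of resistant 2 against vehicle was set beside the difference of K562 from parental OCI-AML3 in batch 1, which shares no library with it. Across 15289 genes tested in a fit of 12 libraries, Pearson's r was 0.915 and Spearman's rank correlation 0.834, across genes, which are not independent. K562 was sequenced in batch 1 only, so the 2 differences come from different batches. Of 9815 genes called in both, 9090 (92.6%) had the same sign and 725 the opposite. The 2 differences were tested against each other as a difference of differences. In that test 6475 genes were called (42.4%), 3931 with a higher value in resistant 2 (25.7%) and 2544 with a lower one (16.6%). The split between higher and lower, 60.7% higher, is not stable: it was 74.4% with library size alone, 44.5% without the low-count filter, and 44.5 to 44.7% without K562 replicate 1 or 2 or any 1 of the 3 parental replicates. The number called was 5689 to 7373 over the alternatives.

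**Figure D5:**
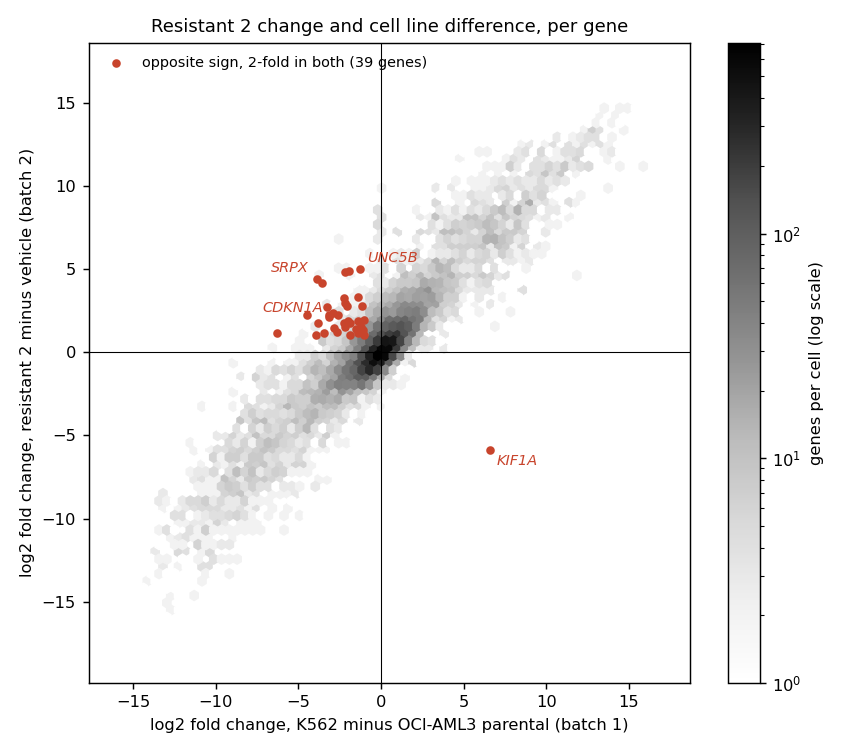
Log2 fold change of resistant 2 against vehicle (vertical axis) and of K562 against parental OCI-AML3 (horizontal axis) for 15289 genes, with the shade of a cell showing how many genes it holds (log scale). Most genes run along the diagonal (Pearson's r 0.915), and the 39 red points, KIF1A the one below the horizontal line, differ in sign.

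A small set of genes moved against the K562 pattern. Of genes called in both with opposite sign, at least 2-fold in each and at 10 CPM or more, there were 39, and 38 of these were higher in resistant 2 than in vehicle and lower in K562 than in parental cells. Those given next were chosen after their values were seen. IFIT3, an interferon-induced antiviral protein, had a log2 difference of 1.90 in resistant 2 and -2.02 in K562. IFIH1, the RNA sensor MDA5, had 1.52 and -2.19, and TAP1, the peptide transporter of class I presentation, 1.22 and -2.65. OAS3 had 1.94 and -1.05, and GBP4, an interferon-induced GTPase, 2.37 and -2.90. Most listed genes of these kinds that were called in both differences had the same sign. They were 19 of 25 type I interferon genes and 14 of 17 antigen presentation genes. CDKN1A, the p53-induced kinase inhibitor p21, had 2.11 and -3.16. The one lower gene was KIF1A, a neuronal motor protein, at -5.89 and 6.61, with 12.1, 10.4 and 11 CPM in vehicle and 0.169, 0.225 and 0.128 in resistant 2. Its mean was 0.16 CPM in parental cells, near the level of resistant 2, and 16 CPM in K562, so the OCI-AML3 baselines of the 2 batches differed for it. With the vehicle of batch 1 as the baseline, its difference of differences was -9.04 and still called.

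By the size of the difference of differences, SRPX, a secreted sushi-repeat protein, stood at 8.31 (SE 0.65, adjusted p = 3.82e-08), with 12, 5.46 and 12.3 CPM in resistant 2, 0.388, 0.53 and 0.558 in vehicle and a mean of 1.98 in parental OCI-AML3 and 0.136 in K562. CASP1 stood at 7.68, since it was at 0.894 CPM in resistant 2 and had 0 counts in K562, where the fitted value depends on the prior count. MAP1B, a microtubule protein of neurons, stood at -8.20: it was 164 CPM in K562 and 437 in resistant 2, but 20.2 in the vehicle of batch 2 and 0.0184 in the parental cells of batch 1. CA2 stood at -7.75, with 1655 CPM in vehicle and 134 in parental cells. In resistant 2 and K562 it was 0.231 and 4.32 CPM. With the vehicle of batch 1 as the baseline in place of parental cells, CA2 stood at -7.12 and MAP1B at -3.10, and both were still called.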

How the data were processed

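The deposited values are whole-number counts per gene, 1 table for each sequencing batch. Per the labels, the authors isolated total RNA, prepared strand-specific mRNA libraries and made gene counts with STAR against hg38, and the submitters' processing notes name DESeq2 1.22.1. The sources used here give no aligner version, gene annotation or strand setting. Counts of genes that overlap or resemble each other may be shared.

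Genes were kept by edgeR's filterByExpr over the 9 libraries of batch 2 (3 vehicle, 3 resistant 2, 3 resistant 1), scaled by TMM and tested with edgeR 4.0.16 in R 4.3.3 (glmQLFit and glmQLFTest, Benjamini-Hochberg adjustment, called at an adjusted p below 0.05). All 9 libraries shared one estimate of spread. A fit of 12 libraries, with K562 and parental OCI-AML3 of batch 1, gave the difference of differences. DESeq2 1.42.0 was an alternative. Total counts ran from 30719771 to 51262668 per library of batch 2, and from 14550367 to 19041929 in the 6 of batch 1 used. No replicate pair was identical, and all differed by more than sampling noise. The floor for an absent gene was 3 counts over the group, and intervals are exact at 95%. The fits were tested on simulated data. Vehicle replicate 1 has a garbled title and was numbered from its library name. All columns had a sample.

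Genes were named by rule: for resistant 2 against vehicle, those called, at 10 CPM or more in the higher group and without overlap, the 8 greatest each way by fold change and by difference of CPM. For resistant 2 against resistant 1 the 8 greatest each way were named, and for the difference of differences the 6 greatest each way. Up to 2 members each way were named from each of 38 gene lists, and 36 further genes whatever their result. Genes of chromosome Y and XIST were not named, and some genes that the rule covers are not reported here. The comparison, the lists and the named genes were chosen with earlier results of these data known. Gene positions are from GENCODE, with 26752 of 28008 symbols matched.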

Additional observations from a re-analysis of the deposited data

Results flagged for a closer look

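Effects that differed between groups under the same contrast were listed for a closer look. Between resistant 2 and resistant 1, which have the same label of resistance, 3706 genes were called. Of the named ones, those higher in resistant 2 had log2 differences of 4.19 for COL1A2, 3.40 for CYTIP, 3.10 for GCA, a calcium-binding protein of granulocytes, 3.08 for MAGEB16, 3.07 for SYTL5, a synaptotagmin-like protein, 3.06 for RASGRP3, 3.05 for LINC01602 and 2.98 for ABCB1. Those lower in resistant 2 had -5.63 for ALDH1L1, a folate enzyme, -4.42 for F8, coagulation factor VIII, -4.12 for SLC6A19, a neutral amino acid transporter, -4.07 for B4GALT6, a glycolipid galactosyltransferase, -3.68 for LAPTM5, -3.49 for LPCAT2, -3.48 for CSF2RB and -3.42 for CATSPERB, a sperm calcium channel subunit. ALDH1L1 had 22, 18.4 and 21.2 CPM in resistant 1, 0.338, 0.494 and 0.405 in resistant 2 and a mean of 0.0399 in K562. SLC6A19 had 32.2, 33.1 and 27.5 CPM in resistant 1 and 1.79, 1.82 and 1.7 in resistant 2, and 0 counts in vehicle. F8 had 7.53, 7.64 and 7.73 CPM in vehicle, 1.44, 1.26 and 0.916 in resistant 2 and 29.4, 26 and 21.7 in resistant 1, so the 2 resistant groups lay on opposite sides of vehicle.

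Between the change of resistant 2 against vehicle and the difference of K562 from parental OCI-AML3, 6475 genes were called. Higher in resistant 2, on the log2 scale, were SYTL5 at 9.17, SRPX at 8.31, WWC3 at 7.74, CASP1 at 7.68, ALX4, a homeobox factor, at 7.62 and DHRS2, a mitochondrial dehydrogenase, at 7.52. Lower were KIF1A at -12.51, BMPR1B, a bone morphogenetic protein receptor, at -9.99, MAP1B at -8.20, CA2 at -7.75, MAGEB2 at -6.97 and KLHL13 at -6.81. In most of these at least 1 of the 4 groups was at or near 0 counts, or the vehicle of batch 2 was far from the parental cells of batch 1, and the fitted size depends on the prior count or on the baseline. BMPR1B had 23.2 CPM in the vehicle of batch 2, 0.118 in parental cells, 0 counts in resistant 2 and 0.0192 CPM in K562. With the vehicle of batch 1 as the baseline in place of parental cells, SYTL5 was at 3.92, DHRS2 at 5.90, BMPR1B at -6.07 and KLHL13 at -0.11, and none of the 4 was called, while KIF1A at -9.04, CA2 at -7.12, MAP1B at -3.10 and MAGEB2 at -2.55 were. Groups of 3 libraries are too small for a test of outlying values.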

How the results depend on the processing

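The number of genes called in resistant 2 against vehicle was 9733 to 12611 over all alternatives except the test against a 2-fold change, which called 6130 (3580 higher and 2550 lower). DESeq2 called 11652. Between resistant 2 and resistant 1, leaving out 1 library gave 2323 to 4814 calls, 1117 to 2505 higher and 1206 to 2309 lower. The difference of differences had 5689 to 7373 calls. The share of calls that were higher moved with library size alone, from 52.9% to 63.5%, from 51.0% to 65.1% and from 60.7% to 74.4% in the 3 comparisons. Same-numbered vehicle and resistant 2 libraries correlated at 0.03, 0.11 and 0.05 in their deviations, and differently numbered ones at -0.10 to 0.05. Vehicle replicates 2 and 3 correlated best with their own number, and vehicle replicate 1 with resistant 2 replicate 3. Whether the numbers pair the libraries is thus not settled. A replicate block gave 11939, 4543 and 6555 calls in the 3 comparisons, against 11586, 3706 and 6475 without it. Of 280 gene results, 278 were called, and 222 of these kept their direction and call under every alternative in which the gene was tested. HMGCS1 changed sign with library size alone (0.20), upper-quartile scaling (0.012) and without resistant 2 replicate 3 (0.10). SQLE changed sign with library size alone (0.26), upper-quartile scaling (0.071) and without resistant 2 replicate 1 (0.11) or 3 (0.09) or vehicle replicate 2 (0.0053) or 3 (0.04), and neither was called there. Without resistant 2 replicate 2 both passed the test, at -0.31 and -0.30. The cause of these shifts was not tested. Chromosome 14 kept medians of -0.48 to -0.45 before 90 Mb and 0.27 to 0.36 after it over 17 alternatives. The depth limits genes near 0 counts, whose folds are given as bounds.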
